A study of Mus musculus with 15 samples.

Results

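The genes examined here encode the killing machinery of cytotoxic lymphocytes. They are the granzymes Gzma, Gzmb, Gzmk and Gzmm, perforin (Prf1), serglycin (Srgn), cathepsin W (Ctsw), the granule membrane protein Nkg7 and Fas ligand (Fasl). They were listed by name and are 9 of the 48795 genes listed in each sample. Of the 9, 7 passed the filter on low counts, and Gzmk and Gzmm did not.

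Cytotoxic lymphocytes store granzymes, a family of serine proteases, in lytic granules, where they are held on the proteoglycan serglycin. On contact with a target cell the granules fuse with the plasma membrane, and perforin, a pore-forming protein, lets the granzymes reach the cytosol of the target. Fas ligand acts on a separate route, by engaging the death receptor Fas on the target. Invariant natural killer T (iNKT) cells are T cells with a semi-invariant T cell receptor that recognises lipids presented by CD1d, and their NKT1 subset shares cytotoxic genes and surface receptors with natural killer (NK) cells, whereas NKT2 and NKT17 cells are known for other cytokines.

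The study compared the transcriptome of iNKT cells between lymphoid tissues by RNAseq. Wild-type C57BL/6 mice aged 6 weeks were used, with no treatment, and iNKT cells were sorted from thymus, spleen, mesenteric lymph node (mLN) and inguinal lymph node (iLN) as cells that bound the CD1d tetramer and TCRβ antibody and lacked B220, CD11b, CD11c and CD8. Thymus, spleen and mLN had 4 samples each, and iLN had 3 (replicates 2, 3 and 4, with replicate 1 not analysed here). Replicates 3 and 4 formed batch 1 and replicates 1 and 2 formed batch 2. The labels do not say whether a replicate was 1 mouse or a pool, so that p-values measure only the spread between these samples. Only the LNs were treated with enzymes (15 min, 37 °C) to release the cells, the other tissues being passed through a strainer, so that tissue and digestion cannot be told apart.

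Total expected counts, the read fragments assigned to genes, were between 1152670 (replicate 2) and 8161419 in thymus, between 4919470 and 8670489 in spleen, between 4740325 and 7914257 in mLN and between 4080503 and 5360756 in iLN. All 5 iNKT markers examined (Zbtb16, Cd3e, Trbc1, Trbc2 and Trav11) were above 0 in every tissue, and their summed level was between 1844.9 and 3088.7 normalised CPM (counts scaled to a common library size) over the 15 samples. The summed level of 5 NKT1 markers was between 1513.7 and 2543.2 CPM in thymus, 1350.4 and 2579.0 in spleen, 1087.1 and 1426.5 in mLN and 1011.2 and 1698.0 in iLN. For 6 NKT2 markers it was between 475.0 and 579.0 CPM in spleen, 610.0 and 765.0 in thymus, 792.0 and 925.0 in mLN and 1120.1 and 1389.5 in iLN. For 8 NKT17 markers it was between 18.8 and 41.1 CPM over thymus and spleen, 62.0 and 103.0 in mLN and 421.0 and 830.0 in iLN. For 6 NK cell markers it was between 71.3 and 117.0 CPM in thymus, with at most 21.9 in any other sample. Most of it in thymus came from Klre1 and Klri2. Klra8 averaged 2.11 CPM in thymus and 0.301 in spleen, and Klra4 was above 0 in thymus alone. Eomes (at most 1.47 CPM in thymus and 3.59 in iLN) and Ncr1 (at most 0.864 and 2.17) were low in every tissue. B cell markers summed to at most 79.6 CPM, in spleen replicate 1, and immature thymocyte markers to at most 38.2 CPM, in thymus replicate 2. Of the 5 NKT1 markers Klrb1c fell in both LNs against thymus and against spleen, and 3 fell in both LNs together against spleen and thymus. Of the 6 NKT2 markers 2 rose in mLN and 3 in iLN (Icos, Izumo1r and Ccr4) against spleen. Icos made up the largest part of the NKT2 sum, with means of 864 CPM in iLN and 294 in spleen. Gata3 (means 112 CPM in iLN and 94.1 in spleen), Il4 (6.51 and 6.7) and Plac8 (5.31 and 16.5) were not called across the 4 tissues. Of the 8 NKT17 markers 7 rose in iLN against thymus and against spleen. In the LNs against thymus and spleen the levels of the NKT subset markers moved with the differences given here, though the NKT1 ranges overlapped in part. Between thymus and spleen the NKT1 and NKT17 sums overlapped, and no NKT1 or NKT17 marker was called. The NKT2 and NK cell sums were higher in thymus than in spleen. The part of these marker levels in the differences between tissues was not tested. In bulk samples, fewer cells of a type and less RNA per cell cannot be told apart.

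The sequences upstream of Gzma, Gzmb and Fasl are shown because these genes had 3 different patterns over the tissues: Gzma was graded from thymus over spleen to LNs, Gzmb was high in thymus alone, and Fasl overlapped between thymus and spleen and was lowest in iLN. They are the 250 bases before the RefSeq transcription start in GRCm38.p6, 5′ to 3′ on the strand of the gene, and capitals mark matches to motifs. The regions are chr13:113100982-113101231 (minus strand) for Gzma, chr14:56262335-56262584 (minus strand) for Gzmb and chr1:161788496-161788745 (minus strand) for Fasl.
Gzma: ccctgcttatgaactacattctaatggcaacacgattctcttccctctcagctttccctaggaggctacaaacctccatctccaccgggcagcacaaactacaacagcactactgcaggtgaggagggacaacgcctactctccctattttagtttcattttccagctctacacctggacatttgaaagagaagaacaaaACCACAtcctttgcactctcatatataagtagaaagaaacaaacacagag
Gzmb: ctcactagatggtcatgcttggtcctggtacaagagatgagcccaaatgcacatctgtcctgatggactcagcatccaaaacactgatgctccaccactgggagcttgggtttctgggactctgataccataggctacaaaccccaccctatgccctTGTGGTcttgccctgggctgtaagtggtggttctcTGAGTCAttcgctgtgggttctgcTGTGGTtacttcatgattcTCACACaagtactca
Fasl: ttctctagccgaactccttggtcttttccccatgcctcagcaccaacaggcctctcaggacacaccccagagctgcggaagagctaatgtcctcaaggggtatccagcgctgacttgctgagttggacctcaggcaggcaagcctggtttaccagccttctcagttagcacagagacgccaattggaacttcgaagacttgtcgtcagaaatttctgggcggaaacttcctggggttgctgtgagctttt

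The motifs searched on both strands were the RUNX core TGTGGT, the T-box core GTGTGA and the AP-1 motif TGANTCA, in which N is any base. None of them overlapped another in the sequences shown. Gzma held a RUNX core 50 to 45 bases before the start, on the opposite strand. Gzmb held RUNX cores at 93 to 88 and 34 to 29 bases before the start, the AP-1 match TGAGTCA at 58 to 52 bases and a T-box core on the opposite strand at 15 to 10 bases, while Fasl held no match in this window. Over all 32851 promoters of this length, 14.0% held the RUNX core, 12.3% the T-box core and 6.75% the AP-1 motif. Of the 9 genes, 8 had a promoter entry, and a RUNX core was also found before a RefSeq start of Nkg7, Prf1, Srgn and Gzmm, and a T-box core before a RefSeq start of Nkg7, Gzmk and Gzmm. Srgn and Gzmm had more than a single entry, and each match lay in only a single entry. The T-box cores of Nkg7, Gzmk and Gzmm and the RUNX core of Srgn lay inside the genes at the coordinates given below. The matches are descriptions of sequence and no binding was measured.

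Levels are given as CPM after TMM normalisation unless TPM is named, with values in the order of the replicate numbers, and differences between tissues as log2 fold changes. edgeR's quasi-likelihood test with batch as covariate was run on all 13600 genes that passed the filter, and the threshold for a call was an adjusted p (Benjamini-Hochberg) under 0.01 together with a fold change over 1.5. Across the 4 tissues together, where the adjusted p alone decides, 3.38% of all genes were called, and so were 5 of the 7 genes tested here. These were Gzma (adjusted p = 5.868e-06), Nkg7 (5.179e-05), Fasl (0.0005572), Ctsw (0.001293) and Gzmb (0.002356). Prf1 (0.1148) and Srgn (0.1468) were not called. The 9 genes were chosen with earlier results of these data known. Shares and medians set beside those of all genes, here and below, are therefore descriptions and no test of the set.

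The 6 pairs of tissues share samples, so they are not independent of each other. In thymus against spleen, where 1.34% of all genes were called, 1 of the 7 genes rose (Ctsw), and the median log2 fold change of the 7 was 0.79 against −0.01 over all genes. In iLN against spleen, where 1.55% of all genes were called, 3 of 7 fell (Gzma, Nkg7 and Fasl), with a median of −1.45 against 0.01. In mLN against thymus, where 1.6% of all genes were called, 3 of 7 fell (Gzma, Ctsw and Nkg7), with a median of −1.49 against 0.03. In iLN against thymus, where 1.5% of all genes were called, 4 of 7 fell (Gzma, Ctsw, Nkg7 and Fasl), with a median of −2.52 against 0.03. Both LNs together against spleen and thymus, where 1.72% of all genes were called, had 3 of 7 lower (Gzma, Nkg7 and Fasl), with a median of −1.61 against 0.02.

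None of the 7 genes was called by edgeR in mLN against spleen, where 0.654% of all genes were called, although 5 had an unadjusted p under 0.05 and DESeq2 called 1. In iLN against mLN, where 0.471% of all genes were called, edgeR and DESeq2 called none of the 7, and 2 had an unadjusted p under 0.05.

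**Figure D1:**
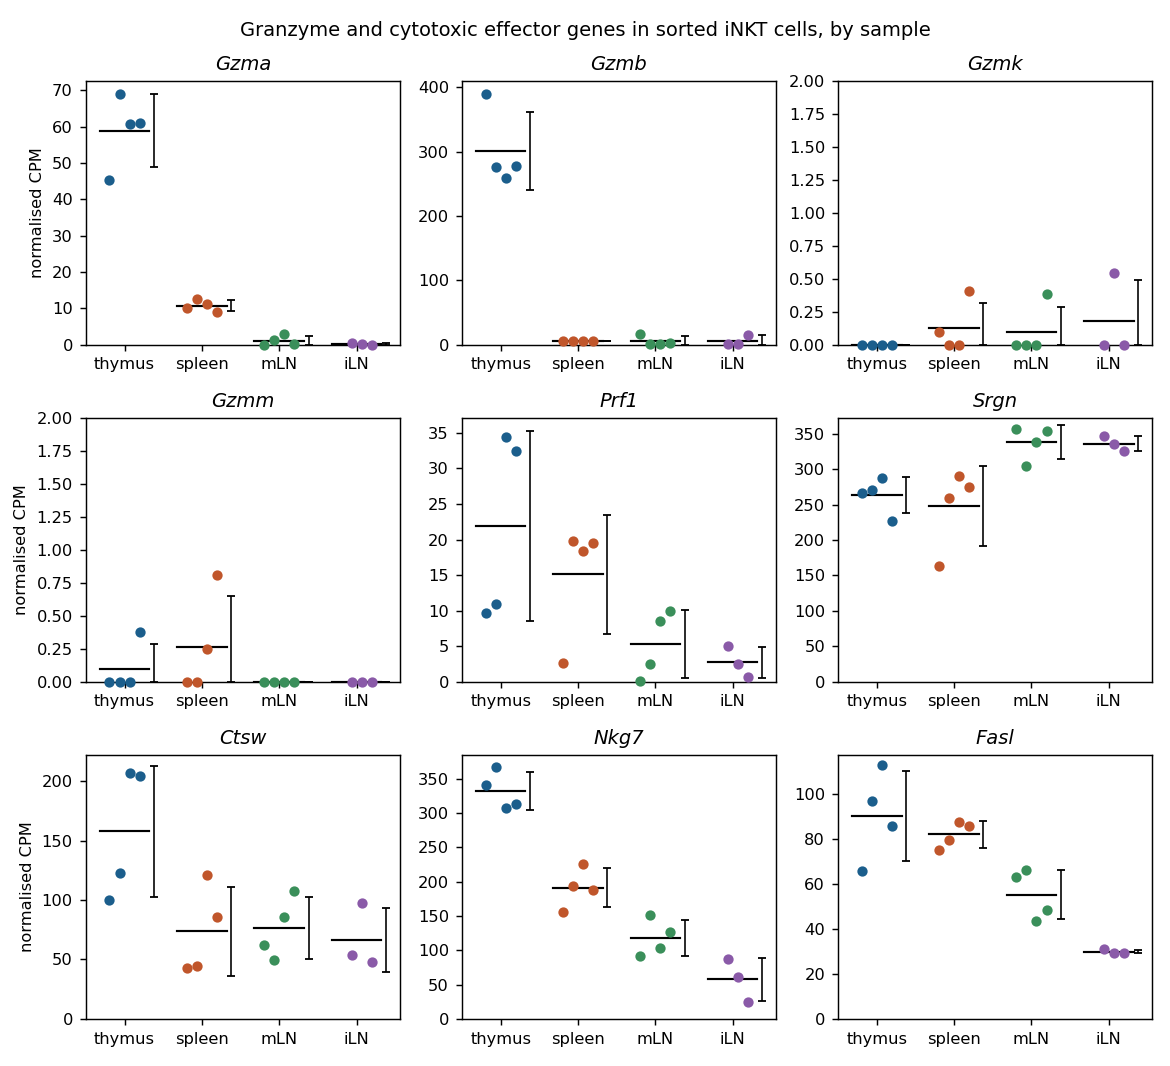
Normalised CPM (vertical axes, linear from 0) of the 9 genes in the 15 samples by tissue, with a point for each sample, a line for the mean and a bar for the SD. Gzma and Gzmb stand apart in thymus, Nkg7 steps down from thymus to iLN, and Gzmk and Gzmm stay under 1 CPM.

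Gzma (chr13:113093825-113100981, minus strand, GRCm38) encodes granzyme A, a tryptase. In thymus it was at 45.2, 69.1, 60.6 and 60.9 CPM and in spleen at 10.1, 12.6, 11.2 and 8.95 CPM. In mLN it was at 0, 1.31, 2.91 and 0.193 CPM and in iLN at 0.538, 0.271 and 0 CPM. Every thymus sample was above every spleen sample, every spleen sample was above every LN sample, and mLN and iLN overlapped. The 4 mLN samples held 24 counts of Gzma in all and the 3 iLN samples held 4, so that the LN levels rest on few fragments.

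The mean of Gzma was 58.9 ± 9.98 CPM (SD, n = 4) in thymus and 10.7 ± 1.57 (n = 4) in spleen, which is 5.5 times as high in thymus. This difference had a log2 fold change of 2.45 (SE 0.58) and missed the threshold in edgeR (adjusted p = 0.02483), but passed it without mLN replicate 1 (0.002807) or mLN replicate 3 (0.009336) and in DESeq2 (2.314e-05). Gzma fell in both LNs against thymus, by log2 fold changes equal to −5.79 ± 0.71 (SE) in mLN and −7.68 ± 0.94 in iLN, with adjusted p in edgeR of 5.303e-05 and 8.102e-05. Within batches these differences of Gzma were −5.30 and −6.43 in mLN and −8.84 and −6.68 in iLN, in batches 1 and 2, and the edgeR calls were lost in batch 2 (adjusted p = 0.02049 and 0.2015). Both LNs together against spleen and thymus gave −5.51 (SE 0.58, edgeR adjusted p = 1.231e-05). Against spleen it fell in iLN, with a log2 fold change equal to −5.23 (SE 0.92, edgeR adjusted p = 0.00234). That call was lost in edgeR without iLN replicate 3 (adjusted p = 0.01043), without iLN replicate 4 (0.01472), with only the 2 tissues in the fit (0.01656) and within each batch (log2 fold changes −6.26 and −4.37). In mLN against spleen the log2 fold change of Gzma was −3.35 (SE 0.67) with an edgeR adjusted p of 0.01158, and it was called without mLN replicate 3 (0.006418), iLN replicate 2 (0.009103) or iLN replicate 4 (0.007188). Between mLN and iLN it was −1.88, with a 95% interval from −4.03 to 0.26.

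Gzmb (chr14:56258838-56262260, minus strand) encodes granzyme B, which cleaves caspases and other proteins after aspartate. Thymus samples held it at 390, 276, 259 and 278 CPM and spleen samples at 5.73, 4.96, 5.98 and 5.29 CPM. It stood in mLN at 16.5, 0.58, 0.416 and 3.08 CPM and in iLN at 0.538, 1.08 and 15.6 CPM. The 4 thymus samples stood far above the other 11, which overlapped, and 1 sample in each LN (mLN replicate 1 and iLN replicate 4) stood above all spleen samples while the other LN samples were below them.

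The mean of Gzmb was 301 ± 60.0 CPM (SD, n = 4) in thymus, 5.49 ± 0.454 (n = 4) in spleen, 5.14 ± 7.65 (n = 4) in mLN and 5.73 ± 8.52 (n = 3) in iLN. The thymus mean was 54.8, 58.6 and 52.5 times those of spleen, mLN and iLN. The log2 fold change in thymus against spleen was 5.78 (SE 1.06, 95% interval 3.44 to 8.11), which missed the threshold in edgeR with all 15 samples (adjusted p = 0.01287). Against thymus Gzmb differed by −5.84 ± 1.06 (log2 ± SE) in mLN and by −5.54 ± 1.21 in iLN, with adjusted p in edgeR of 0.01132 and 0.03191. All 3 differences from thymus were called in edgeR when mLN replicate 1 or iLN replicate 4 was left out. Thymus against spleen then had an adjusted p of 0.0004243 without mLN replicate 1 and of 0.0004438 without iLN replicate 4, although neither library belongs to that comparison, and it was called as well without mLN replicate 2 (0.008752) or iLN replicate 2 (0.006676). Without mLN replicate 1 the log2 fold change of Gzmb in mLN against thymus was −7.93 (edgeR adjusted p = 0.0003941), and without iLN replicate 4 that of iLN against thymus was −8.66 (0.002745). Leaving out iLN replicate 2 also gave a call in mLN against thymus (edgeR adjusted p = 0.005228). DESeq2 called Gzmb in thymus against spleen with all samples (log2 fold change 5.77, adjusted p = 6.812e-06). It also called Gzmb against thymus in mLN (−5.95, DESeq2 adjusted p = 2.769e-06) and in iLN (−5.55, 0.0001259). For the LNs against spleen the 95% intervals of the log2 fold change were wide, from −2.31 to 2.19 in mLN and from −2.27 to 2.74 in iLN.

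The order of the 2 granzymes differed between thymus and spleen. On the TPM scale, which adjusts for gene length, Gzmb was above Gzma in all 4 thymus samples, at 408, 363, 211 and 251 TPM against 85.2, 163, 88.4 and 97.8. In spleen it was below Gzma in all 4 samples, at 7.38, 5.74, 4.25 and 5.2 TPM against 23.3, 26.3, 14.1 and 15.6. By mean TPM Gzmb ranked 262 of the 48795 listed genes in thymus and 9314 in spleen, and Gzma ranked 722 and 4600.

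Gzmk (chr13:113171608-113225908, minus strand), granzyme K, and Gzmm (chr10:79689020-79695261, plus strand), granzyme M, were at or near 0. Gzmk had 0 counts over the 4 thymus samples, 3 in spleen, 2 in mLN and 2 in iLN, and Gzmm had 2 in thymus, 5 in spleen and 0 in both LNs. A count of 0 allows a level of up to 0.155 CPM in thymus, 0.124 in mLN and 0.204 in iLN, taking 3 counts over the group as the limit, and covers counting error only. No difference between tissues was detectable at this depth for either gene, and no fold is given. Gzmk overlaps Esm1 on the opposite strand, and the strand setting of the counting is not stated.

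Prf1 (chr10:61297833-61304680, plus strand) encodes perforin. The thymus samples were at 9.63, 11, 34.4 and 32.4 CPM and the spleen samples at 2.57, 19.8, 18.4 and 19.5 CPM. The mLN samples were at 0.13, 2.47, 8.53 and 10 CPM and the iLN samples at 5.02, 2.44 and 0.684 CPM. Only thymus and iLN did not overlap, and in thymus and mLN the samples of batch 1 were above those of batch 2. In iLN against thymus Prf1 gave −2.67 on the log2 scale (SE 0.93, edgeR adjusted p = 0.136), and none of the 6 pairs of tissues passed the threshold. Both LNs together against spleen and thymus gave −2.24 (SE 0.60, edgeR adjusted p = 0.03854), and −3.23 (0.007259) without iLN replicate 2, and DESeq2 called it with all samples (adjusted p = 0.001761). In batch 1 alone Prf1 in iLN was lower than in thymus by a log2 fold change of −4.51 (edgeR adjusted p = 0.002603), while in batch 2, with 1 iLN sample, it was −1.04 (0.9186).

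Srgn (chr10:62493833-62527451, minus strand) encodes serglycin, the proteoglycan core to which granzymes bind in the granule. Thymus gave 267, 270, 288 and 227 CPM and spleen 164, 260, 291 and 275 CPM. mLN gave 357, 304, 338 and 354 CPM and iLN 347, 335 and 325 CPM. In CPM all 7 LN samples were above all 8 samples of thymus and spleen, the opposite order to that of Gzma. In TPM the iLN range (481 to 696) overlapped those of thymus (355 to 642) and spleen (344 to 560). The mLN range (599 to 645 TPM) overlapped that of thymus but not that of spleen. In both LNs together against spleen and thymus, Srgn was 0.40 higher on the log2 scale (SE 0.11), which was not called (edgeR adjusted p = 0.05401). Of the 7 genes tested, only Srgn had log2 fold changes above 0 in both LNs against both other tissues, at 0.46 and 0.43 against spleen and 0.36 and 0.34 against thymus in mLN and iLN, and none of these passed the threshold. Between mLN and iLN the log2 fold change was −0.03, with a 95% interval from −0.38 to 0.32.

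Ctsw (chr19:5465043-5468507, minus strand) encodes cathepsin W, a cysteine protease found in cytotoxic lymphocytes. In thymus it was at 99.7, 123, 207 and 204 CPM and in spleen at 43, 44.6, 121 and 85.4 CPM. In mLN it was at 61.9, 49.9, 85.9 and 108 CPM and in iLN at 53.8, 97.5 and 48.2 CPM. Thymus was highest on average but overlapped spleen and mLN, and in thymus, spleen and mLN both samples of batch 1 were above both of batch 2. The share of counts from nuclear genes that overlap rRNA repeats moved with the batches, at 2.24% to 4.396% in batch 2 and 6.82% to 17.0% in batch 1 apart from iLN replicate 4, which was at 2.88%, and its part in the levels was not tested. With batch in the model Ctsw was higher in thymus than in spleen (log2 fold change 1.15, SE 0.22, edgeR adjusted p = 0.004543). It was lower in mLN than in thymus (−1.04, SE 0.22, edgeR adjusted p = 0.009171) and lower in iLN than in thymus (−1.33, SE 0.24, edgeR adjusted p = 0.003136). Without the batch covariate none of the 3 differences was called (edgeR adjusted p = 0.1607 for thymus against spleen, 0.1763 for mLN against thymus and 0.1125 for iLN against thymus). Within batches 1 and 2 none was called either. The log2 fold changes were 0.98 and 1.33 in thymus against spleen (adjusted p = 0.3017 and 0.1959), −1.09 and −0.99 in mLN against thymus (0.1784 and 0.3777) and −1.51 and −1.05 in iLN against thymus (0.0323 and 0.5787). The call in thymus against spleen was also lost when any 1 thymus library or spleen replicate 1, 2 or 4 was left out, with edgeR adjusted p of at most 0.02511. The mLN difference was lost without any 1 of the thymus or mLN libraries or spleen replicate 2 or 4 (at most 0.04519), and the iLN difference without thymus replicate 2, 3 or 4 or iLN replicate 4 (at most 0.01402) and with only the 2 tissues in the fit (0.01715). The log2 fold change of Ctsw stayed between −1.12 and −0.97 in mLN and between −1.34 and −1.08 in iLN with these libraries left out.

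**Figure D2:**
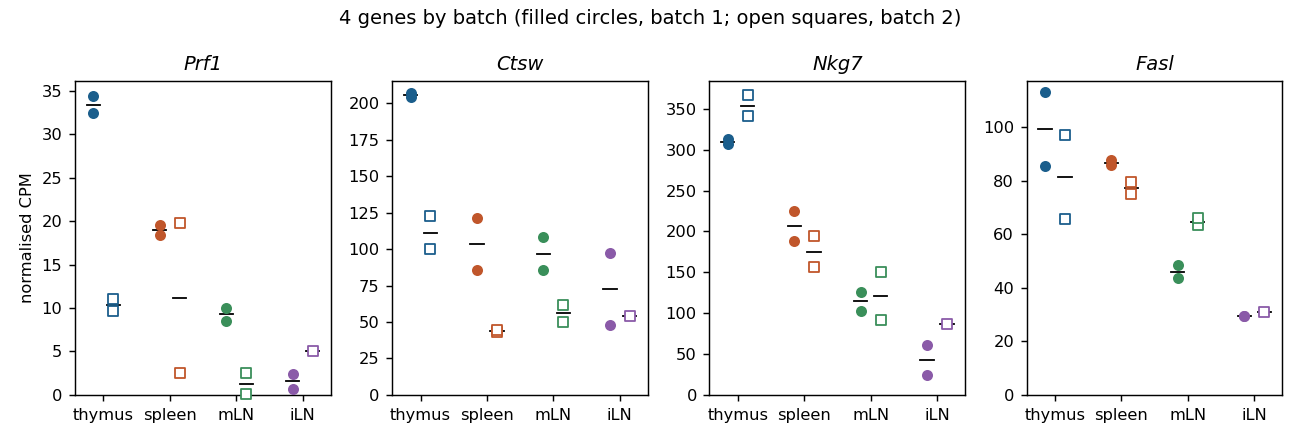
Normalised CPM (vertical axes, linear from 0) of Prf1, Ctsw, Nkg7 and Fasl by tissue, with filled circles for batch 1, open squares for batch 2 and lines for the means. Ctsw is higher in batch 1 in thymus, spleen and mLN, with batch means of 205 against 112 CPM in thymus, while Nkg7 steps down over the tissues in both batches.

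Nkg7 (chr7:43437073-43438249, plus strand) encodes a membrane protein of cytotoxic granules. Its thymus levels were 341, 367, 307 and 313 CPM and its spleen levels 156, 194, 225 and 188 CPM. Its mLN levels were 91.3, 151, 103 and 126 CPM and its iLN levels 87.2, 61.5 and 24.8 CPM. No pair of tissues overlapped in CPM, so that on this scale thymus was above spleen, spleen above mLN and mLN above iLN in every sample. In TPM each tissue overlapped the next, with 482 to 1027 in thymus, 320 to 520 in spleen, 191 to 341 in mLN and 83.3 to 244 in iLN. Mean levels were 332 ± 27.5 CPM (SD, n = 4) in thymus, 191 ± 28.2 (n = 4) in spleen, 118 ± 26.2 (n = 4) in mLN and 57.8 ± 31.4 (n = 3) in iLN.

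Nkg7 fell in iLN against thymus (log2 fold change −2.52, SE 0.30, edgeR adjusted p = 5.518e-05), in mLN against thymus (−1.49, SE 0.25, 0.001697) and in iLN against spleen (−1.73, SE 0.29, 0.001504). Neighbouring tissues in this order did not differ beyond the threshold, the log2 fold change being 0.79 in thymus against spleen (SE 0.25, edgeR adjusted p = 0.1358), −0.70 in mLN against spleen (SE 0.25, 0.218) and −1.02 in iLN against mLN (SE 0.28, 0.07704). Within batches Nkg7 in iLN against thymus was −2.87 in batch 1 (edgeR adjusted p = 0.002492) and −2.03 in batch 2 (0.08377). In mLN against thymus it was −1.44 and −1.54, called in neither batch (edgeR adjusted p = 0.07589 and 0.02974), and in iLN against spleen −2.29 and −1.02 (0.007974 and 0.3676). The last difference was not called with only the 2 tissues in the fit (adjusted p = 0.04238). Both LNs together against spleen and thymus gave −1.61 for Nkg7 (SE 0.19, edgeR adjusted p = 6.285e-05).

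Fasl (chr1:161780689-161788495, minus strand) encodes Fas ligand. Thymus levels were 65.7, 97.0, 113 and 85.6 CPM and spleen levels 74.9, 79.6, 87.7 and 85.8 CPM. mLN levels were 63.3, 66.0, 43.5 and 48.5 CPM and iLN levels 30.9, 29.5 and 29.4 CPM. The 3 iLN samples were below every other sample, the mLN samples were below the spleen samples, and thymus overlapped spleen and, by its replicate 1, mLN. In TPM mLN (31.3 to 50.8) and spleen (43.9 to 67.7) overlapped. The spread was small in iLN, with a mean of 29.9 ± 0.802 CPM (SD, n = 3) against 90.3 ± 19.9 (n = 4) in thymus.

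Fasl fell in iLN against thymus (log2 fold change −1.59, SE 0.23, edgeR adjusted p = 0.0003877) and against spleen (−1.45, SE 0.23, 0.0009713). Within batches the difference from spleen was −1.58 in batch 1 (edgeR adjusted p = 0.00768) and −1.34 in batch 2 (0.3541). In mLN the log2 fold change was −0.70 against thymus (SE 0.20, edgeR adjusted p = 0.07718) and −0.57 against spleen (SE 0.20, 0.2169), and iLN against mLN gave −0.88 (SE 0.23, 0.0586). Both LNs together against spleen and thymus gave −1.08 (SE 0.15, edgeR adjusted p = 0.0002387). Thymus and spleen differed by 0.14 (SE 0.20, edgeR adjusted p = 0.9182).

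**Figure D3:**
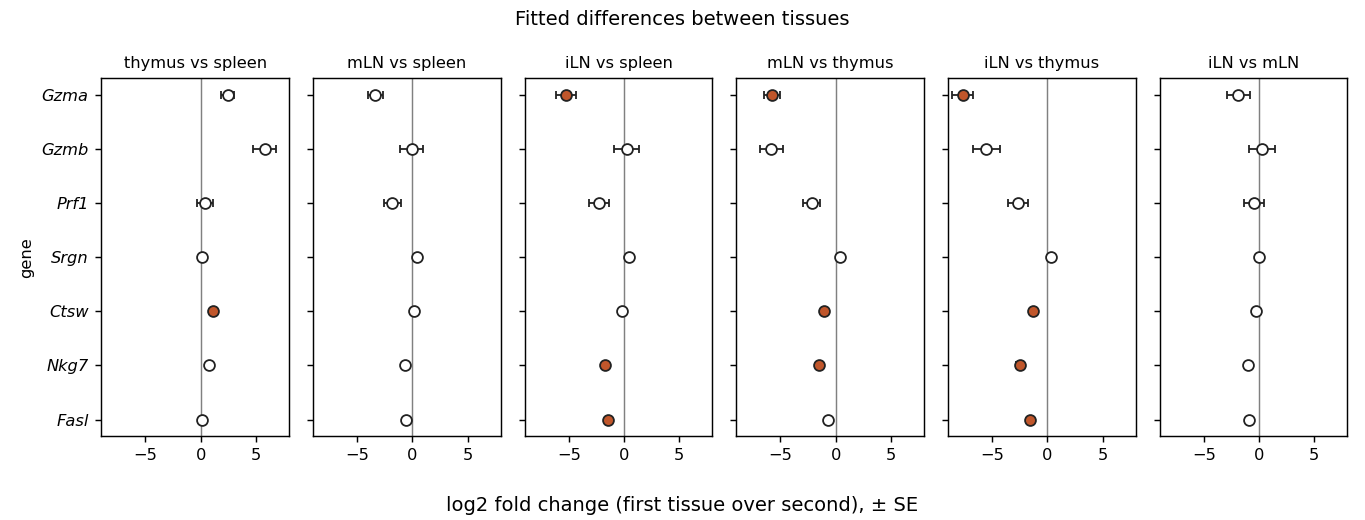
Log2 fold change (horizontal axes) with its SE for the 7 genes tested in each of the 6 pairs of tissues, with filled points for called genes. Gzma, Nkg7 and Ctsw are called lower in both LNs against thymus, and no gene is called in mLN against spleen or in iLN against mLN.

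Levels of different genes were compared in TPM. In thymus the order by mean TPM was Nkg7 (709 ± 245, SD, n = 4), Srgn (475 ± 125), Gzmb (308 ± 92.7), Ctsw (182 ± 40.9), Gzma (109 ± 36.7), Fasl (64.0 ± 18.1) and Prf1 (13.5 ± 6.36). Of the neighbours in this order only Fasl and Prf1 had ranges that did not overlap. In spleen Srgn (440 ± 90.3 TPM) and Nkg7 (405 ± 83.7) were highest and overlapped, followed by Ctsw (81.6 ± 21.4), Fasl (58.9 ± 10.6), Gzma (19.8 ± 5.9), Prf1 (9.65 ± 5.65) and Gzmb (5.64 ± 1.31), with gaps between Nkg7 and Ctsw and between Fasl and Gzma. In mLN the upper places were held by Srgn (622 ± 22.8 TPM), Nkg7 (253 ± 69.8), Ctsw (95.8 ± 33.9) and Fasl (41.3 ± 8.58), all with separate ranges, and Gzmb, Prf1 and Gzma followed with means between 2.07 and 5.33 TPM. In iLN the same 4 genes led, with Srgn at 600 ± 109 TPM (n = 3), Nkg7 at 146 ± 85.5, Ctsw at 77.5 ± 13.1 and Fasl at 22.1 ± 4.65, and Nkg7 and Ctsw overlapped, as did Fasl and Gzmb, whose highest sample (replicate 4) was at 18.6 TPM against the lowest of Fasl at 16.7 TPM. Srgn thus ranked between 164 and 201 of the 48795 genes in every tissue, whereas Gzma ranked 722 in thymus and 15365 in iLN.

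**Figure D4:**
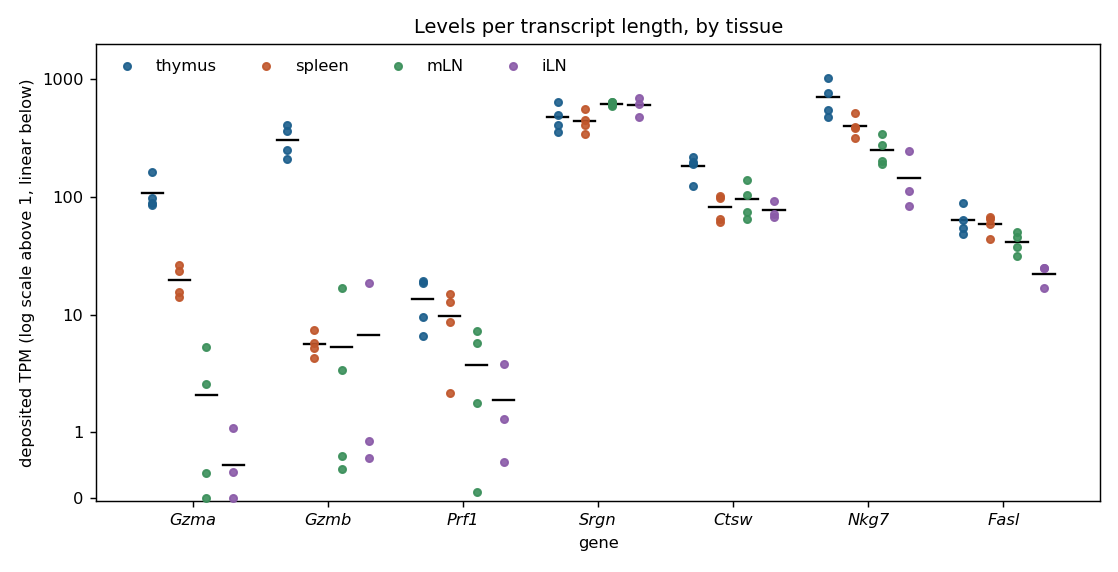
Deposited TPM (vertical axis, log scale above 1 and linear below) of the 7 genes tested, by tissue, with points for samples and lines for means. Srgn and Nkg7 are among the highest in each tissue, and Gzmb lies with the high genes in thymus alone, at a mean of 308 TPM against 5.33 to 6.70 elsewhere.

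For each gene called across the 4 tissues, the 3 genes with the most similar pattern were found by Pearson's r of log2 CPM over the 15 samples, among the 10141 genes whose mean reached 5 CPM. These values are descriptions over samples that share tissue, batch and depth. For Gzma they were Klrb1c, which encodes NK1.1 (r = 0.931), Gas7 (0.916) and Klra5 (0.889). For Gzmb they were the kinase gene Styk1 (r = 0.931), the NK receptor gene Klri2 (0.924) and Tjp1 (0.905), and Styk1 averaged 140 CPM in thymus and at most 1.21 in the other tissues. Ctsw was most like Ifitm10 (r = 0.936), Ptma (0.896) and Hip1r (0.888), Nkg7 most like Fam19a3 (0.941), Lamtor4 (0.908) and Nmnat2 (0.904), and Fasl most like Ppp1r12c (0.883), Gm4070 and 2410002F23Rik (both 0.88). Among the cytotoxic genes themselves, Gzma and Nkg7 had r = 0.883, Nkg7 and Fasl 0.862, Gzma and Gzmb 0.722, and Gzma and Srgn −0.63.

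Other granzymes were scarce. Gzmd, Gzme, Gzmf, Gzmg and Gzmn had 0 counts in all 15 samples, which allows up to 0.036 CPM over all samples, and Gzmc was at 2.2 to 6.17 CPM in thymus and at most 2.57 CPM elsewhere and was not called in any pair. Of 4 granzyme inhibitor genes tested, 1 was called, Serpinb1a, a serpin known as an inhibitor of neutrophil serine proteases. It rose in iLN against thymus (log2 fold change 4.88, SE 0.77, edgeR adjusted p = 0.0007896) and against spleen (4.43, SE 0.71, 0.001107), with a mean of 38.3 CPM in iLN and 1.65 CPM in thymus. Serpinb9, the inhibitor of granzyme B, was at 36.4 to 85.3 CPM in thymus and 10.6 to 26.5 CPM in iLN and was not called (log2 fold change −1.64, SE 0.42, edgeR adjusted p = 0.03593).

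Of 6 genes for granzyme processing and granule proteases, Ctss rose against spleen in thymus, mLN and iLN (in iLN with log2 fold change 1.91, SE 0.23, edgeR adjusted p = 4.352e-05). In mLN against thymus Ctsb rose (0.96, SE 0.15, 0.0009) and Ctsd fell (−0.87, SE 0.17, 0.005733). Ctsc, the cathepsin that converts progranzymes to active enzymes, was at 61.0 to 68.9 CPM in thymus and 29.5 to 36.4 in spleen, and this difference was not called (log2 fold change 0.98, SE 0.26, edgeR adjusted p = 0.05041). Of 16 genes tested for granule biogenesis and exocytosis, Lyst, a regulator of lysosome-related organelles, fell against spleen in thymus (log2 fold change −1.42, SE 0.15, edgeR adjusted p = 4.965e-06), mLN and iLN, and Lamp1 rose in mLN against thymus (1.01, SE 0.18, 0.002372). Of 9 other death ligand and receptor genes tested, 1 was called in any comparison, Tnfsf10, which encodes TRAIL. It fell in both LNs together against spleen and thymus (log2 fold change −0.71, SE 0.15, edgeR adjusted p = 0.006994).

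Of 15 transcription factor genes tested, 1 rose and 1 fell in mLN against spleen, 2 rose in iLN against spleen, 2 rose and 2 fell in mLN against thymus, 1 rose and 1 fell in iLN against thymus, and 2 rose in iLN against mLN. In both LNs together against spleen and thymus, 1 of them rose and 2 fell. Tcf7, which encodes TCF-1, rose in both LNs against both thymus and spleen, in iLN against spleen with log2 fold change 1.62 (SE 0.19, edgeR adjusted p = 3.69e-05). Zfp683, which encodes Hobit, fell against thymus in mLN (log2 fold change −1.44, SE 0.21, edgeR adjusted p = 0.0003279), and likewise in iLN (−1.40, SE 0.23, 0.001399). Lef1 rose in mLN against thymus (1.01, SE 0.17, 0.001567) and Runx2 in iLN against mLN (2.63, SE 0.38, 0.0007447). Tbx21, which encodes the T-box factor T-bet, was not called in iLN against spleen (log2 fold change −1.40, SE 0.32, edgeR adjusted p = 0.01638).

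Among 13 genes of activating inputs, 1 fell in thymus and 2 in mLN against spleen, 1 rose in iLN against spleen, 1 rose and 3 fell in mLN against thymus, 1 rose and 1 fell in iLN against thymus, and 1 rose in iLN against mLN. Both LNs together against spleen and thymus had 1 of them higher and 3 lower. Il12rb2, an IL-12 receptor chain, fell in mLN against thymus (log2 fold change −1.75, SE 0.20, edgeR adjusted p = 2.034e-05), as did Il18rap (−1.50, SE 0.18, 3.64e-05). Il2ra, the high-affinity IL-2 receptor chain, rose in iLN against thymus (log2 fold change 4.49, SE 0.28, edgeR adjusted p = 2.78e-08), and Il18r1 rose in iLN against mLN (1.65, SE 0.18, 6.233e-05). Of 3 cytokine and chemokine genes tested, Ccl5 fell in thymus against spleen (log2 fold change −2.68, SE 0.26, edgeR adjusted p = 2.49e-06) and in both LNs against spleen, and Xcl1 fell in iLN against thymus (−1.43, SE 0.26, 0.003136).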

How the data were processed

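iNKT cells of 15 samples were analysed. Libraries were made with a low-input kit and read as 101 bp pairs. The authors trimmed reads with Cutadapt 1.7.1 and quantified genes with RSEM 1.2.31 and Bowtie2 2.2.9 on GRCm38.p6. The deposited expected counts are RSEM's estimates, in which fragments that align to several genes are shared, with no normalization. The authors also deposited TPM, scaled for effective length and to the same sum per sample, which was used to compare levels between genes. FPKM, deposited as well, was not used.

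Expected counts were rounded, filtered by filterByExpr, TMM-normalized (factors 0.755 to 1.18) and fitted with edgeR 4.0.16 (limma 3.58.1, R 4.3.3) with tissue and batch, for all samples. The 9 genes and all lists were chosen with earlier results of these data known. All 9 genes are named. Of each other list, up to 4 genes called in a pair are named, by smallest adjusted p. Gzmc to Gzmn, Serpinb9, Ctsc, Tbx21, Gata3, Il4, Plac8, Ncr1, Eomes, Klra4 and Klra8 are given besides, chosen after their values were seen. Nearest genes used log2(CPM + 0.5). Alternatives were DESeq2 1.42.0, RLE normalization, no low-count filter, no rRNA genes, no batch covariate, a replicate block, only the groups compared, each batch alone, each library left out, and CPM per kb for TPM. Python 3.11.15 with numpy 2.4.6, pandas 2.3.3 and matplotlib 3.10.9 drew the figures.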

Additional observations from a re-analysis of the deposited data

Results flagged for a closer look

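In 3 of 22 groups of 4 samples examined (genes by tissue), 1 sample stood apart from the other 3 by Dixon's test, where chance gives about 1 in 20. Gzmb was highest in thymus replicate 1 at 390 CPM, with the next sample at 278 CPM. Gzmb was also highest in mLN replicate 1 at 16.5 CPM, with the next at 3.08 CPM. Prf1 was lowest in spleen replicate 1 at 2.57 CPM, with the next at 18.4 CPM, and that library also had the highest summed B cell markers of all samples, at 79.6 CPM. Their part in these values was not tested.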

How the results depend on the processing

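Of the 7 genes tested, the number called in thymus against spleen (1 with all 15 samples) was 3 with DESeq2, 4 without the low-count filter, 0 without the batch covariate, 4 with only the 2 groups compared, and 0 in batch 1 alone, in batch 2 alone and with thymus replicate 2 and spleen replicate 1 both left out, a setting chosen after seeing the data. It ranged from 0 to 3 when 1 library was left out. In mLN against spleen (0) it was 1 with DESeq2 and without the filter, and 0 to 1 with 1 library left out. In iLN against spleen (3) it was 1 with only the 2 groups and 0 in batch 2 alone. Without the filter it was 5 in mLN against thymus (3) and 1 in iLN against mLN (0), and both LNs against spleen and thymus (3) gave 5 with DESeq2 and without the filter. In batch 2, which has 1 iLN sample assumed to vary like the other groups, 0 were called in every comparison, against 4 in iLN against thymus and 5 across the 4 tissues with all samples.

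The replicate block (the replicate number in place of batch) gave 2 in thymus against spleen and 1 in mLN against spleen, and changed no other count by over 1.5 times. It added calls of Gzmb in thymus against spleen (adjusted p = 0.00533) and in mLN against thymus (0.003521) and of Gzma in mLN against spleen (0.009336), it lost that of Ctsw in mLN against thymus (0.0132), and it changed no other call of the 7 genes in these comparisons of tissues. Samples with the same number correlated in their deviations from the tissue means at r = 0.126 on average over 21 pairs, and 15 pairs were over 0.1, so the numbers were not taken to pair the samples. 12 of 15 samples correlated best with their own number.

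Signs of uncalled log2 fold changes turned in places. In batch 2 alone these were Prf1 in thymus against spleen (−0.13), Gzmb in mLN against spleen (0.67), Gzmb (−3.29) and Ctsw (0.28) in iLN against spleen, and Gzmb (−3.96), Prf1 (1.94) and Srgn (0.056) in iLN against mLN. In batch 1 alone these were Srgn in thymus against spleen (−0.15) and Ctsw in mLN against spleen (−0.11). Srgn in thymus against spleen was −0.082 with thymus replicate 2 and spleen replicate 1 out, and Gzmb in iLN against spleen was −0.54 with only the 2 groups. With 1 library left out, Gzmb ranged from −2.14 to 0.34 in mLN against spleen, from −2.86 to 1.04 in iLN against spleen and from −2.73 to 2.11 in iLN against mLN. Ctsw ranged from −0.39 to 0.083 in iLN against spleen, Prf1 from −2.21 to 0.20 and Srgn from −0.11 to 0.018 in iLN against mLN, and Srgn from −0.063 to 0.19 and Fasl from −0.0089 to 0.28 in thymus against spleen. The cause was not tested.

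Over all genes, the calls in thymus against spleen, mLN against spleen, iLN against spleen, mLN against thymus, iLN against thymus, iLN against mLN, both LNs and the 4 tissues were 182, 89, 211, 217, 204, 64, 234 and 459. DESeq2 called 387, 248, 557, 414, 472, 277, 477 and 1002, and no low-count filter gave 393, 273, 544, 435, 480, 280, 532 and 1135. Batch 1 alone gave 45, 0, 81, 55, 114, 23, 95 and 180 and batch 2 alone 27, 0, 4, 31, 7, 3, 2 and 41. No batch covariate gave 29, 129, 123 and 40 in mLN and iLN against spleen, iLN against thymus and iLN against mLN, and only the 2 groups gave 313, 17, 86 and 20 in thymus, mLN and iLN against spleen and iLN against mLN. With thymus replicate 2 and spleen replicate 1 both out, thymus, mLN and iLN against spleen gave 98, 17 and 121 and mLN against thymus 132. Leaving out any 1 library of spleen or mLN, or thymus replicate 3 or 4, moved mLN against spleen by over 1.5 times (23 to 59 calls), as did any thymus library or mLN replicate 3 in mLN against thymus (125 to 144), thymus replicate 3 or 4 or iLN replicate 4 in iLN against thymus (104 to 127), spleen replicate 3 or 4 or iLN replicate 2 or 4 in iLN against spleen (108 to 138), and thymus replicate 1 or spleen replicate 4 in thymus against spleen (114 and 115). With CPM per kb in place of TPM, 16 neighbours in the order of levels had separate ranges, against 11. Gzmk and Gzmm are limited by depth.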
